A study of Mus musculus with 16 samples.

Results

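CXCL9, CXCL10 and CXCL11 are the chemokines that bind CXCR3, a receptor carried mainly by activated T cells and NK cells. Their transcripts, Cxcl9, Cxcl10 and Cxcl11, were taken by symbol from the deposited table. All 3 were listed among its 13085 genes, and all 3 were among the 12782 genes tested. The data are bulk RNA-seq of mouse monocytes from NFAM1+/+ mice and from NFAM1-/- mice, cultured for 6 or 24 h, either unstimulated or given IFN-γ together with the CD40 ligand MegaCD40L. The strain was C57BL/6, and the NFAM1-/- allele was made in the germline by deleting exons 2 and 3. The 16 libraries make 8 groups of 2, named WT or KO by their titles.

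Each library is called here by the number in its title. Libraries 1 and 2 (WT) and 3 and 4 (KO) were unstimulated at 6 h, and libraries 26 and 10 (WT) and 11 and 12 (KO) were stimulated at 6 h. At 24 h, libraries 44 and 45 (titled WT) and 43 and 46 (titled KO) were unstimulated, and 56 and 57 (titled WT) and 55 and 58 (titled KO) were stimulated. For 4 libraries at 24 h, numbers 44, 46, 56 and 58, the genotype tag names the other genotype. Genotype at 24 h is therefore given as labelled by the title, then by the tag, and then for the libraries whose labels agree. Stimulus and time labels do not conflict. The labels call the cells blood monocytes and the study's methods describe monocytes from bone marrow. The labels and the study's RNA-seq methods give different IFN-γ doses, so the dose behind the stimulus values is not settled here. Nothing in the labels ties a library to an animal, and the study names fewer mice than there are libraries, so libraries may share animals. All libraries were fitted as independent, and p-values here measure only the spread between them.

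The chemokines are known as interferon-induced genes. IFN-γ acts through its receptor, the kinases JAK1 and JAK2 and transcription factors that include IRF1, which turn on the 3 genes. Type I interferon reaches them through the complex ISGF3, and NF-kB, which CD40 activates, adds to the transcription of Cxcl10 in particular. The secreted proteins draw CXCR3-bearing lymphocytes to inflamed tissue, and the protease DPP4 trims and inactivates them.

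The 3 genes are neighbours. In GENCODE vM21 on GRCm38, Cxcl9 (ENSMUSG00000029417.9) lies on the minus strand at chr5:92321347-92328079, Cxcl10 (ENSMUSG00000034855.13) at chr5:92346638-92348889 and Cxcl11 (ENSMUSG00000060183.6) at chr5:92359544-92365485. The gaps between them are 18558 and 10654 bases, and together they span 44139 bases. The build named in the labels is GRCm39, so these coordinates place the genes but are not those of the deposited table.

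Cxcl11 is annotated as a polymorphic pseudogene in this reference, which is of the C57BL/6 strain. The following stretches are shown because they are where its gene models part. The coding model omits 2 genomic bases at chr5:92363177-92363178, and the contiguous model, which has no such gap, contains them (in capitals). Both are written 5′ to 3′ on the strand of the gene.
Coding model of Cxcl11: tagccctggctgcaatctgggccacagc
Contiguous model of Cxcl11: tagccctggctgcaATatctgggccacagc
Reading from the start codon gave 99 codons before a stop in the coding model and 36 when the 2 bases were kept. The 2 bases are part of the C57BL/6 reference, and C57BL/6 is also the strain given for these mice. The deposited table gives 1 value for the gene, so the reads reported for Cxcl11 count its RNA and do not tell the models apart. They do not show that a full-length CXCL11 protein was made, which was not tested.

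The promoters of Cxcl9 and Cxcl10 are shown because these genes moved together while their responses differed in size. The sequences are the 250 bases before the start of the gene in RefSeq on GRCm38.p6, at chr5:92328080-92328329 for Cxcl9 and chr5:92348890-92349139 for Cxcl10, both on the minus strand. Capitals mark matches to the ISRE core, the NF-kB consensus and AP-1.
Cxcl9: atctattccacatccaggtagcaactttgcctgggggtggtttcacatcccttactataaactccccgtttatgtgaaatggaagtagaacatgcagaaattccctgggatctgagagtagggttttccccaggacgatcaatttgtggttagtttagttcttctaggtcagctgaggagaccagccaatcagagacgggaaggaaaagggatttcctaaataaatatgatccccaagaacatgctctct
Cxcl10: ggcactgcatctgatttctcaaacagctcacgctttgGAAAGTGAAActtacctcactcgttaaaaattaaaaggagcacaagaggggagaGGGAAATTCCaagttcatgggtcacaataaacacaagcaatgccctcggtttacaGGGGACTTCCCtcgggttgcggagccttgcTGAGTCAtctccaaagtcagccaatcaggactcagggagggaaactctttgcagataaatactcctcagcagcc
Matches were sought on both strands of a window that also takes in the 50 bases after the start. The ISRE core (GAAA, any 2 bases and GAAA again, a site of ISGF3 and IRF factors) had 1 match for Cxcl10, from -213 to -204 relative to the start, and 0 for Cxcl9. It was found in 3.44% of the 32851 promoters of the same length. The NF-kB consensus had 3 matches for Cxcl10, at -159 to -150, -104 to -95 and -103 to -94, of which the last 2 overlap, and 0 for Cxcl9, against 8.46% of promoters with a match. AP-1 (TGANTCA, 7.81% of promoters) had 1 match in each gene, from -74 to -68 in Cxcl10 and from +32 to +38, after the printed stretch, in Cxcl9. The GAS (TTCNNNGAA, the IFN-γ-activated site, 8.30% of promoters) had 0 matches in either window, and the NFAT core (GGAAA, 61.3% of promoters) had 3 in each. The first NFAT core match of Cxcl10 overlaps the ISRE core, and its second overlaps the first NF-kB match. The letters of the TATA box (TATAAA, 13.6% of promoters) were matched once in Cxcl9, from -195 to -190, and not in Cxcl10. That match, far from the start, does not show that Cxcl9 has a working TATA box. These are matches of letters in short windows, not measured binding. A count of 0 does not show that a promoter lacks a site whose letters differ from these.

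Unstimulated monocytes held little of these transcripts. Levels are in CPM, the usual depth-scaled read count, relative to the library size that the authors normalized. At 6 h, Cxcl9 was at 10.1, 5.40, 5.82 and 4.39 CPM in libraries 1, 2, 3 and 4, and at 24 h it was at 4.48, 8.48, 4.99 and 4.78 CPM in libraries 43, 44, 45 and 46. Cxcl10 was at 27.0, 27.6, 27.5 and 14.5 CPM in the same 4 libraries at 6 h and at 13.7, 16.6, 13.3 and 17.2 CPM at 24 h. Cxcl11 was at 0.722, 0.168, 0.300 and 0.345 CPM at 6 h and at 0.307, 0.274, 0.118 and 0.282 CPM at 24 h. Cxcl10 was thus the leading member at rest, in every unstimulated library, and Cxcl11 rested on only 8 to 81 reads per library.

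With IFN-γ plus CD40L, all 3 transcripts were abundant. At 6 h, Cxcl9 was at 11247, 13741, 15465 and 14450 CPM in libraries 26, 10, 11 and 12, and Cxcl10 was at 6527, 7914, 8763 and 8907 CPM. Cxcl11 was at 465, 559, 634 and 651 CPM. At 24 h, Cxcl9 was at 5205, 3703, 4514 and 5818 CPM in libraries 55, 56, 57 and 58, Cxcl10 was at 2583, 2160, 2334 and 2388 CPM, and Cxcl11 was at 178, 140, 181 and 227 CPM. No stimulated library overlapped an unstimulated one of its time for any member, where 32.5% of all genes were higher without overlap at 6 h and 35.4% at 24 h. No library at 24 h reached the lowest stimulated library at 6 h. Library 26 was the lowest of the stimulated libraries at 6 h for all 3 members, and library 56 was the lowest of those at 24 h.

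The 3 transcripts together took up 1.39% to 1.95% of the reads on listed genes in the stimulated libraries at 6 h and 0.602% to 0.869% at 24 h. In the unstimulated libraries they took up 0.00255% to 0.00492% at 6 h and 0.00236% to 0.00322% at 24 h. In bulk libraries, fewer cells making a transcript and less of it per cell cannot be told apart.

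**Figure D1:**
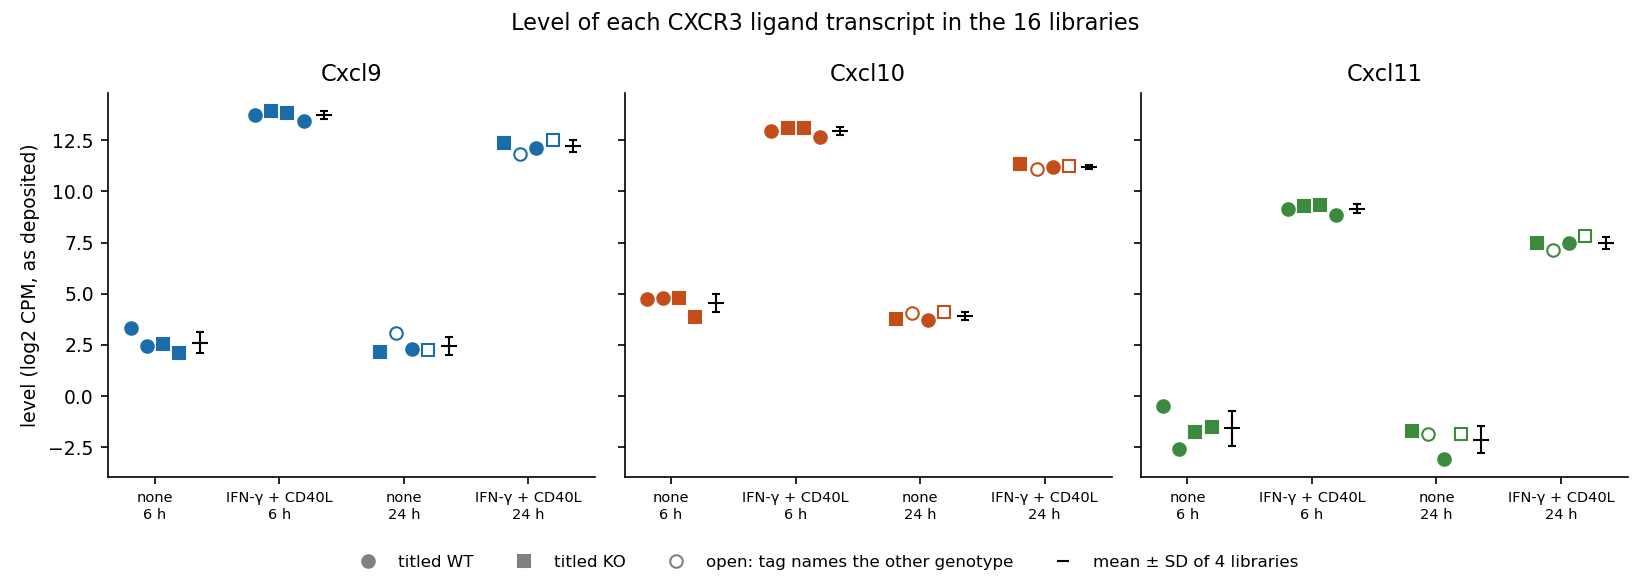
Level of Cxcl9, Cxcl10 and Cxcl11 (log2 CPM, vertical axis) in each of the 16 libraries, by stimulus and time (horizontal axis). Circles are titled WT and squares titled KO, open symbols are the 4 libraries whose tag names the other genotype, and black bars are the mean ± SD of 4 libraries. The stimulated libraries sit far above the unstimulated ones for each gene, and those at 24 h sit below those at 6 h.

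The question asked of stimulus at each time was how much IFN-γ plus CD40L raised each ligand over resting cells. At 6 h the rise was 2233-fold for Cxcl9, 1709-fold for Cxcl11 and 341-fold for Cxcl10. On the log2 scale these differences were 11.12 for Cxcl9 (95% interval 10.73 to 11.52, adjusted p = 2.029e-15), 10.74 for Cxcl11 (9.98 to 11.49, adjusted p = 1.984e-12) and 8.41 for Cxcl10 (8.09 to 8.74, adjusted p = 4.598e-15). The test was limma's moderated test over all 16 libraries with Benjamini-Hochberg adjustment over the 12782 genes, 4 libraries against 4. A gene was called at a change of at least 2-fold and an adjusted p under 0.05. All 3 members were called higher, where 19.1% of all genes were. Counted from the strongest rise among the genes tested, Cxcl9 stood at place 8, Cxcl11 at place 20 and Cxcl10 at place 86.

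At 24 h the rise over unstimulated cells of the same time was 865-fold for Cxcl9, 778-fold for Cxcl11 and 156-fold for Cxcl10. The log2 differences were 9.76 (95% interval 9.36 to 10.16), 9.60 (8.85 to 10.36) and 7.29 (6.96 to 7.62), with limma adjusted p of 1.638e-14, 9.247e-12 and 3.581e-14. All 3 were called higher, against 14.6% of all genes. The places among the rises were 7 for Cxcl9, 8 for Cxcl11 and 73 for Cxcl10. The size of the Cxcl11 rise depends on the pseudocount. With log2(CPM + 1) it was 8.71 at 6 h and 7.18 at 24 h, beside 10.90 and 9.51 for Cxcl9 and 8.35 and 7.20 for Cxcl10. Since Cxcl11 was near the floor at rest, its fold is the least precise of the members (SE 0.35 on the log2 scale, against 0.19 for Cxcl9 and 0.15 for Cxcl10).

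Scaling bears on the size of these differences but not on their direction. The total of reads on listed genes over the scaled library size was 0.756 to 0.788 in the unstimulated libraries. It was 1.24 to 1.32 in the stimulated ones at 6 h and 0.970 to 0.997 in those at 24 h. With each library set to its own total of reads, the median of all genes at 6 h moved from -0.13 to -0.87 on the log2 scale, and the share of calls that were higher fell from 48.1% to 21.3%. The members stayed called higher at both times.

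**Figure D2:**
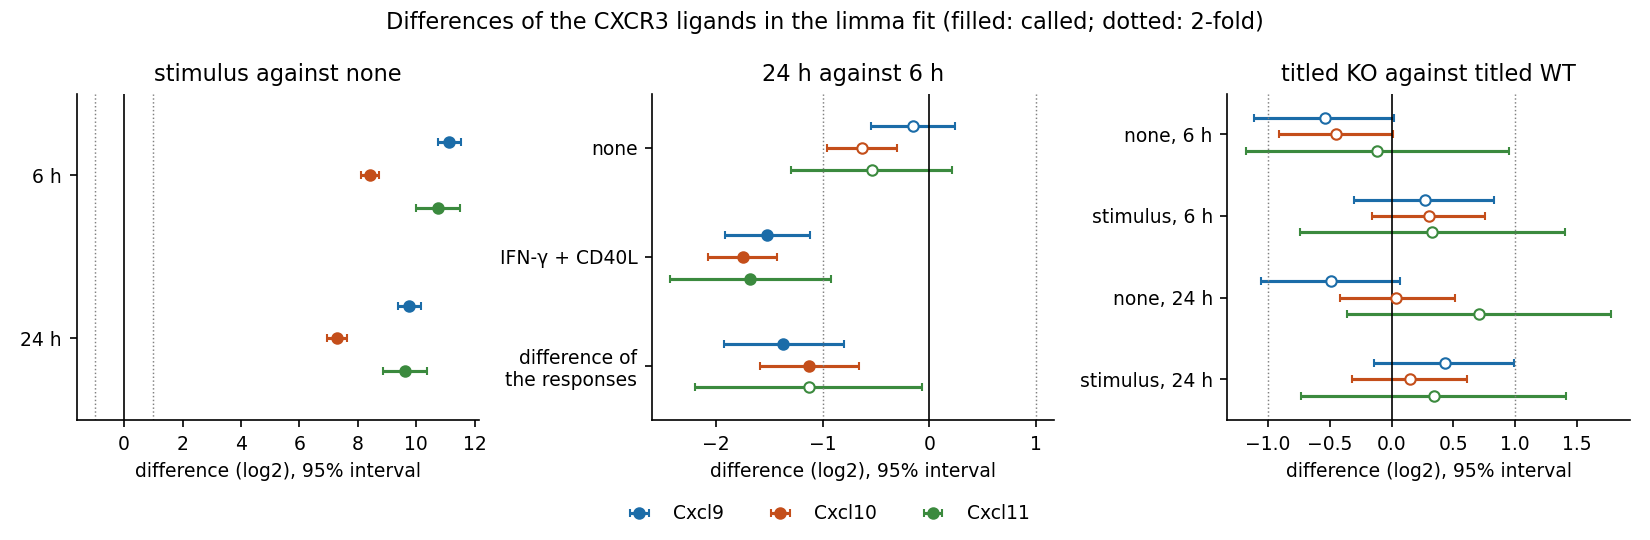
Difference on the log2 scale (horizontal axis) of Cxcl9, Cxcl10 and Cxcl11 for stimulus against none, for 24 h against 6 h, and for titled KO against titled WT, with 95% intervals from the limma fit. Filled points were called and open points were not. The stimulus differences lie between 7.29 and 11.12, and every genotype interval reaches to or across 0.

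From 6 to 24 h under stimulus, all 3 ligands fell. Cxcl9 fell from 13726 ± 1798 CPM to 4810 ± 910 CPM (SD, n = 4 each), Cxcl10 from 8028 ± 1092 CPM to 2366 ± 174 CPM and Cxcl11 from 577 ± 85 CPM to 181 ± 35.5 CPM. The log2 differences were -1.52 (95% interval -1.92 to -1.12), -1.75 (-2.08 to -1.43) and -1.68 (-2.43 to -0.92), with limma adjusted p of 3.899e-06, 1.124e-07 and 5.980e-04. All 3 were called lower, against 17.2% of all genes, and the libraries of the 2 times did not overlap for any of them, against 33% of genes lower without overlap. The 3 intervals overlap, and the sizes of the falls were not tested against each other. Under quantile normalization the fall of Cxcl9 was -0.97, which is under 2-fold.

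Without a stimulus the libraries of the 2 times overlapped for every member. The log2 difference between 24 and 6 h was -0.63 for Cxcl10 (95% interval -0.96 to -0.30, limma adjusted p = 0.00246), below the fold needed for a call. For Cxcl9 it was -0.15 (-0.55 to 0.24, adjusted p = 0.483) and for Cxcl11 -0.54 (-1.30 to 0.21, adjusted p = 0.190). None of the 3 was called, where 7.76% of genes were called lower and 13.2% higher. Without library 2 the Cxcl11 value was -1.07 and was called.

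The response itself was compared between the times as the difference of the stimulus effects. It was smaller at 24 h by 1.37 on the log2 scale for Cxcl9, that is -1.37 (95% interval -1.93 to -0.80, limma adjusted p = 3.792e-04). For Cxcl10 the difference was -1.13 (-1.59 to -0.66, adjusted p = 3.681e-04) and for Cxcl11 -1.13 (-2.20 to -0.07, adjusted p = 0.0573). The first 2 were called, against 18.2% of all genes called lower, and Cxcl11 was not. These 2 calls rest on the scaling: with quantile normalization the values were -0.72 for Cxcl9 and -0.73 for Cxcl10, and with each library set to its own total they were -0.97 and -0.73, all under 2-fold. The Cxcl10 value was -0.90 without library 4 and -0.91 with only the libraries whose labels agree. Cxcl11 was called with median centring (-1.29), with log2(CPM + 1) (-1.53), without library 1 (-1.66) and without library 45 (-1.44).

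Ratios between the members within a library do not depend on how the library was scaled, and are given as a description. The ratio of Cxcl9 to Cxcl10 in CPM was 0.372, 0.196, 0.212 and 0.303 in unstimulated libraries 1 to 4 and 1.72, 1.74, 1.76 and 1.62 in stimulated libraries 26, 10, 11 and 12. At 24 h it was 0.327, 0.510, 0.375 and 0.278 in libraries 43 to 46 and 2.01, 1.71, 1.93 and 2.44 in libraries 55 to 58. Cxcl9 therefore passed Cxcl10 in reads in all 8 stimulated libraries and in none of the 8 unstimulated ones. The ratio of Cxcl11 to Cxcl10 rose in the same way, from 0.0061 to 0.0267 in the unstimulated libraries of both times to 0.0647 to 0.0949 in the stimulated ones. The ratio of Cxcl9 to Cxcl11 overlapped between stimulated and unstimulated libraries at both times, at 12.7 to 32.0, 22.2 to 24.6, 14.6 to 42.4 and 25.0 to 29.2 in the order unstimulated 6 h, stimulated 6 h, unstimulated 24 h and stimulated 24 h. The stimulated libraries at 24 h all lay above those at 6 h in this ratio.

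In the stimulated libraries at 6 h the members kept nearly fixed proportions. The log2 ratio of Cxcl11 to Cxcl10 had an SD of 0.02 over the 4 libraries, although the log2 level of each gene had an SD of 0.22 and 0.21. For Cxcl9 over Cxcl10 the SD was 0.05, and for Cxcl9 over Cxcl11 it was 0.07. At 24 h the same SDs were 0.24, 0.21 and 0.10, with library 58 highest in the first 2 ratios and library 56 lowest. In unstimulated libraries the ratios that involve Cxcl11 had SDs of 0.56 to 1.00 and rest on its few reads. The SD of a level also holds the scaling of each library, which cancels in a ratio. Ratios between other genes were not computed, so steady proportions are not shown to be particular to the members.

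**Figure D3:**
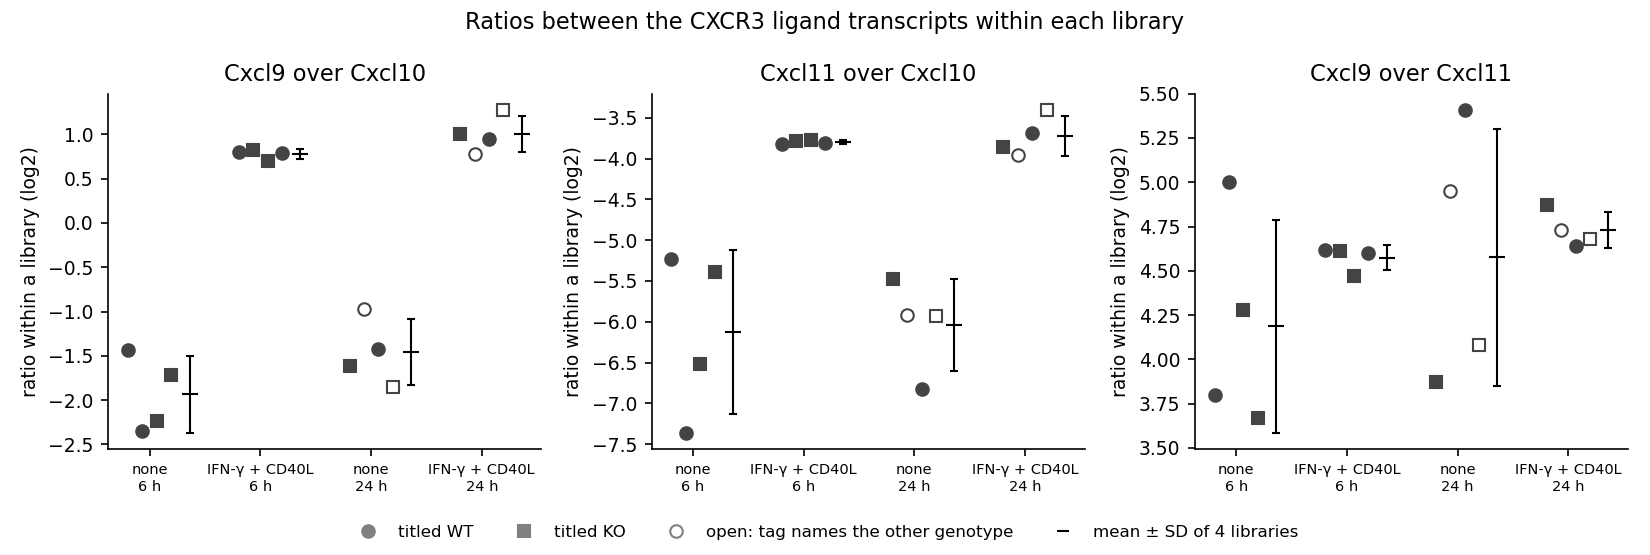
Log2 ratio between 2 members within each library (vertical axis) by stimulus and time (horizontal axis), with symbols as for the levels and black bars for the mean ± SD of 4 libraries. Cxcl9 over Cxcl10 lies below 0 in the unstimulated libraries and above 0 in the stimulated ones, while Cxcl9 over Cxcl11 overlaps between stimulated and unstimulated libraries of the same time.

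To compare levels between the genes, CPM was divided by the length of a coding transcript (2889 bases for Cxcl9, 1353 for Cxcl10 and 1581 for Cxcl11). Per kilobase, the level at rest at 6 h was 10.7 to 20.4 for Cxcl10, 1.52 to 3.48 for Cxcl9 and 0.107 to 0.457 for Cxcl11, with no overlap. With stimulus at 6 h it was 4824 to 6583 for Cxcl10, 3893 to 5353 for Cxcl9 and 294 to 412 for Cxcl11. Per kilobase the first 2 thus overlapped with stimulus, as they did at 24 h (1597 to 1909 and 1282 to 2014), while Cxcl11 stayed below both at 88.5 to 143. The order of the first 2 depends on the length taken. With the union of all annotated exons (3016 bases for Cxcl9 and 2252 for Cxcl10) Cxcl9 was higher at 24 h without overlap, at 1228 to 1929 against 959 to 1147.

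Ranked by level per kilobase of coding transcript among 11287 genes, Cxcl10 stood at places 4 to 5 and Cxcl9 at places 5 to 7 in the 4 stimulated libraries at 6 h. Cxcl11 stood at places 235 to 361. At rest at 6 h, the places were 2837 to 4547 for Cxcl10, 7410 to 8855 for Cxcl9 and 10027 to 10818 for Cxcl11. At 24 h with stimulus they were 18 to 23, 17 to 28 and 500 to 813.

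Genotype was compared to ask whether loss of NFAM1, a receptor of myeloid cells that signals through an ITAM, altered the ligands. The targeted gene was read first. Nfam1 was at 432 and 408 CPM in the unstimulated WT libraries at 6 h and at 299 and 321 CPM in the KO libraries, a log2 difference of -0.44 (limma adjusted p = 0.0514), where 20.3% of all genes were lower without overlap. With stimulus at 6 h it was at 133 and 129 CPM in WT and 135 and 127 CPM in KO, which overlapped. At 24 h it was at 463 and 495 CPM in libraries titled WT and 441 and 391 CPM in those titled KO without stimulus, and at 271 and 252 CPM against 201 and 223 CPM with stimulus. The groups by title did not overlap at 24 h, where 23.5% and 23.2% of all genes were lower without overlap, and the groups by tag did. A value for the whole gene also counts the exons left in place, so it does not by itself check the deletion.

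Unstimulated at 6 h, Cxcl9 was at 7.73 ± 3.30 CPM in WT and 5.10 ± 1.01 CPM in KO (SD, n = 2 each), and Cxcl10 was at 27.3 ± 0.387 and 21.0 ± 9.17 CPM. The log2 differences, KO minus WT, were -0.54 (95% interval -1.11 to 0.02, limma adjusted p = 0.526) for Cxcl9, -0.45 (-0.91 to 0.01, adjusted p = 0.518) for Cxcl10 and -0.12 (-1.18 to 0.95, adjusted p = 0.978) for Cxcl11. The groups overlapped for each member, and none was called, where 11 genes (0.0861%) were. The Cxcl10 value was 0.0083 without library 4, the KO library at 14.5 CPM, and the Cxcl11 value was 0.93 without library 1.

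Stimulated at 6 h, both KO libraries lay above both WT libraries for all 3 members. Cxcl9 was at 12494 ± 1764 CPM in WT and 14958 ± 718 CPM in KO, Cxcl10 at 7221 ± 981 and 8835 ± 102 CPM, and Cxcl11 at 512 ± 66.7 and 643 ± 12.3 CPM (SD, n = 2 each). These groups were separated in the same direction for 23.5% of all genes. The log2 differences were 0.27 (95% interval -0.30 to 0.83), 0.30 (-0.16 to 0.76) and 0.33 (-0.74 to 1.40), with limma adjusted p of 0.699, 0.557 and 0.811. The intervals take in rises as well as falls for each member. No gene of the 12782 (0%) was called in this comparison by limma, and 1862 (14.6%) had an unadjusted p under 0.05.

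The change of the 6 h response with genotype, the difference of these differences, was 0.81 for Cxcl9 (95% interval 0.01 to 1.61), 0.75 for Cxcl10 (0.10 to 1.40) and 0.45 for Cxcl11 (-1.06 to 1.96). The limma adjusted p values were 0.581, 0.546 and 0.874. No gene was called by limma (0%), and 1090 (8.53%) had an unadjusted p under 0.05, Cxcl9 and Cxcl10 among them. Without library 1 the Cxcl11 value was -0.60.

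At 24 h the sign depends on which label is believed for Cxcl9, for Cxcl11 with stimulus and for Cxcl10 without stimulus. For Cxcl10 with stimulus and Cxcl11 without stimulus it does not. With stimulus, the difference of libraries titled KO from those titled WT was 0.43 for Cxcl9 (95% interval -0.14 to 0.99, limma adjusted p = 0.487), 0.15 for Cxcl10 (-0.32 to 0.61, adjusted p = 0.839) and 0.34 for Cxcl11 (-0.73 to 1.41, adjusted p = 0.836). By the genotype tag the same values were -0.22, 0.00099 and -0.36. For the single libraries whose labels agree, 55 and 57, they were 0.21, 0.15 and -0.019. Without stimulus they were -0.49, 0.04 and 0.71 by title, 0.33, -0.0054 and 0.67 by tag, and -0.16, 0.038 and 1.38 for libraries 43 and 45. By title, both stimulated KO libraries were higher for Cxcl9 and Cxcl10, where 24.9% of genes were, and both unstimulated ones were lower for Cxcl9 (23.5% of genes) and higher for Cxcl11 (21.9% of genes). No member was called under any of the 3 labellings, where 74 genes (0.579%) were called by title with stimulus and 37 (0.289%) without.

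The receptor and the trimming protease were listed to see the other side of the axis in the same cells. Cxcr3 itself was at 0.306 to 0.721 CPM in unstimulated libraries at 6 h and at 5.68 to 7.14 CPM at 24 h. With stimulus it was at 0.00809 to 0.167 CPM at 6 h and 0.0674 to 0.207 CPM at 24 h, on 0 to 16 reads. Cxcr3 passed the filter of 1 CPM only through the unstimulated libraries at 24 h, the group where it is high. Its calls, higher with time without stimulus and lower with stimulus at both times, are therefore given only as a description. Dpp4 was at 9.07 to 12.5 CPM unstimulated and 17.8 to 23.8 CPM stimulated at 6 h, a log2 difference of 0.81 that was below the fold needed for a call. At 24 h it was at 21.6 to 31.9 CPM unstimulated and 10.8 to 31.6 CPM stimulated, a difference of -0.50 (limma adjusted p = 0.0189) that was also below that fold. The difference of these responses was called (-1.31, adjusted p = 3.307e-04), though not with each library set to its own total (-0.91). Ackr3, the remaining gene of this list and a scavenging receptor of CXCL11, was not analysed here.

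The 8 genes of the IFN-γ signal chain described here were all tested. For all lists below, the share of all genes called was 19.1% higher and 20.6% lower at 6 h, and 14.6% higher and 18.7% lower at 24 h. At 6 h, 5 were called higher, 1 was called lower and 2 were not called, with a median log2 difference of 2.47 against -0.13 over all genes. At 24 h the counts were the same and the median was 2.07, against 0.01. Irf1, an interferon-induced transcription factor, rose by 6.50 at 6 h and 5.34 at 24 h on the log2 scale. Socs1, the feedback inhibitor of the JAK kinases, rose by 9.43 and 6.28, from 1.21 to 3.31 CPM at rest to 909 to 1406 CPM with stimulus at 6 h. Ifngr1, the ligand-binding chain of the receptor, was the member called lower at both times, by -2.38 and -1.84. Between 6 and 24 h of stimulus 2 of the 8 were called lower, where 17.2% of all genes were. These were Socs1 (-1.96) and Irf8 (-1.05), an interferon-induced factor of the myeloid lineage. The Irf8 call was lost under quantile normalization (-0.52) and under each library's own total (-0.68). Irf1 (-0.41) was lower by less than 2-fold.

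Of the 9 genes of type I interferon and its factor ISGF3, 5 were called higher at 6 h (median 1.87, against -0.13 over all genes). At 24 h 5 were higher and 1 was lower, Ifnar1, a chain of the type I interferon receptor. Ifnb1, which encodes interferon-β, was at 35.2 to 78.5 CPM in the stimulated libraries at 6 h, against 0 to 12 reads per library in the unstimulated ones, and had dropped to 0.880 to 2.17 CPM at 24 h. From 6 to 24 h of stimulus it fell by 5.12 on the log2 scale, beside -1.52, -1.75 and -1.68 for Cxcl9, Cxcl10 and Cxcl11. Stat2 and Usp18, a factor and a feedback protease of this pathway, rose by 4.75 and 7.75 at 6 h and then fell by 1.27 and 1.48 on the log2 scale. Under quantile normalization those falls were -0.73 and -0.90, below the fold needed for a call. Irf7, which amplifies type I interferon, rose by 6.05 at 6 h, and its 24 h level differed from that at 6 h by -0.16 (adjusted p = 0.362).

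The 14 genes of CD40 and NF-kB were all tested. At 6 h 5 were called higher and 1 lower (median 0.87), and at 24 h 8 were higher and 1 lower (median 1.25). Cd40, the receptor of the second ligand given, rose by 4.62 and 5.27. Nfkb2 and Relb, the subunits of the noncanonical branch, were higher at 24 h (2.45 and 1.98) and below 2-fold at 6 h (0.91 and 0.51). Nfkb1 was 1.29 higher at 6 h and differed by -0.06 at 24 h. Map3k14, the kinase NIK, was the member called lower, at -1.01 and -1.07. The counts at 6 h depend on scaling, with 1 called higher and 2 lower when each library was set to its own total, and 8 higher and 0 lower with median centring.

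Of 5 regulators of mRNA decay, Zfp36l2 (-2.67) and Zfp36l1 (-1.19) were called lower at 6 h and again at 24 h (-2.53 and -2.90). Both encode proteins that bind AU-rich elements. Zfp36, which encodes tristetraprolin, was 1.05 higher at 6 h and differed by 0.08 at 24 h, and its call at 6 h was lost under quantile normalization (0.05) and under each library's own total (0.31). Elavl1 and Zc3h12a were not called at either time.

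Of 12 other CXC ligand genes, 6 were listed, and the rise of the CXCR3 ligands was not shared by most of them. Cxcl16, a membrane-bound chemokine that binds CXCR6, was called higher at 6 and 24 h (1.86 and 1.27), although under quantile normalization both values were under 2-fold (0.94 and 0.89). Cxcl2, a ligand of the neutrophil receptor CXCR2, was at 9.86 to 17.1 CPM unstimulated and 4.22 to 13.4 CPM stimulated at 6 h, and was called lower at 24 h (-1.85). Cxcl14 was called lower at both times, from 3.53 to 5.28 CPM at rest at 6 h to 0.16 CPM or less with stimulus. Cxcl1, Cxcl3 and Pf4 were at no more than 1.16, 1.72 and 1.38 CPM in any library. Of these, Cxcl1 was called lower at 6 h (-1.41), Cxcl3 higher at 24 h (2.00) and Pf4 lower at 24 h (-5.61), and for Cxcl1 and Cxcl3 the libraries overlapped.

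**Figure D4:**
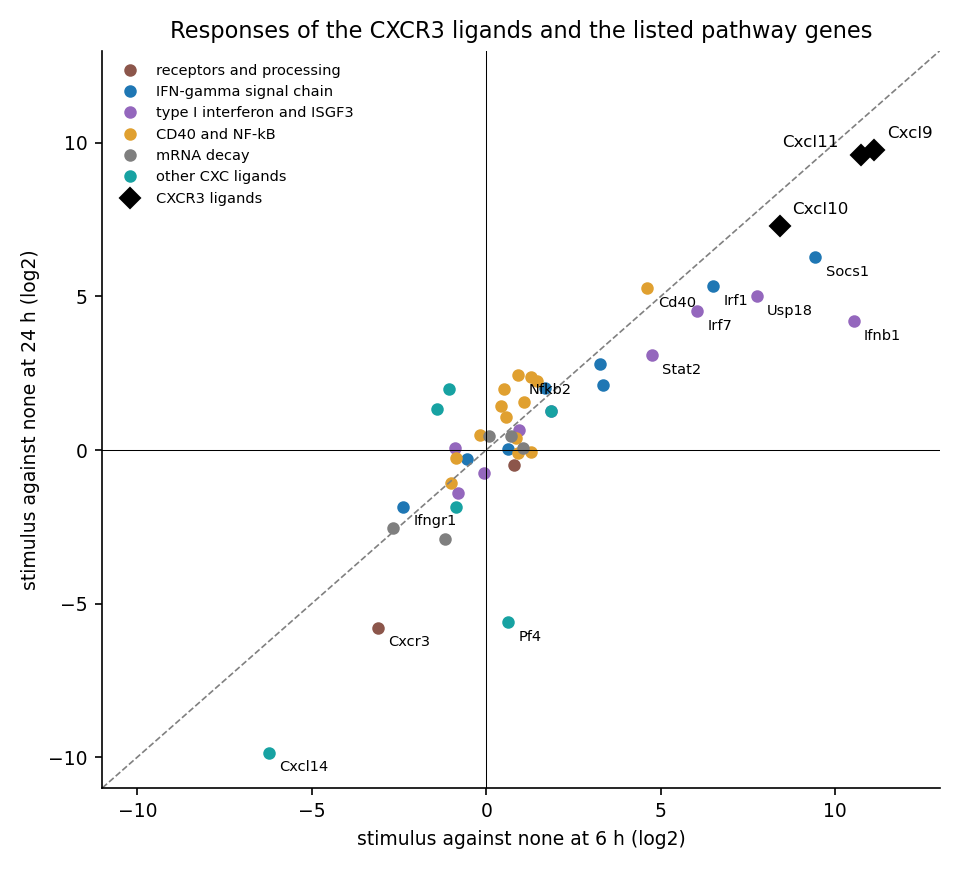
Difference between stimulated and unstimulated libraries on the log2 scale at 6 h (horizontal axis) and 24 h (vertical axis) for the 3 CXCR3 ligands (black diamonds) and the 44 listed pathway genes tested (points, coloured by list), with a dashed line where the times are equal. The ligands lie below the line with Socs1, Usp18 and Ifnb1, and Cd40 lies above it.

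Genes beside the cluster on the chromosome were read as well. Of 18 genes that RefSeq places within 200 kb, 8 were tested. At 6 h 3 of the 8 were called higher (Art3, Naaa and Ppef2) and Sdad1 was called lower, and the largest log2 rise apart from Art3 was 2.14, for Naaa, which encodes a lysosomal amidase. Uso1 differed by -0.02. Art3 is on the opposite strand and overlaps Cxcl10 and Cxcl11. Its exons share 133 bases with those of Cxcl10, which is 5.91% of the Cxcl10 exon bases and 0 bases of its coding transcript. Art3 was at 0 to 6 reads in the unstimulated libraries and at 8.20 to 14.7 CPM in the stimulated ones at 6 h. The libraries do not mark strand, so reads in the shared bases cannot be told apart. A processed pseudogene, Gm2673, shares 1582 bases with the annotated exons of Cxcl11 (41.7% of them) and 0 with its coding transcript.

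The genes whose log2 level most resembled each ligand over the 16 libraries were found by Pearson's r, as a description. Serpina3g, a serine protease inhibitor, came first for all 3, with r of 0.9993 for Cxcl9, 0.998 for Cxcl10 and 0.9965 for Cxcl11. For Cxcl9 the next were Serpina3f, Gbp5, Noc4l and Irgm2, for Cxcl10 they were 1110038F14Rik, Casp1, Upp1 and Parp11, and for Cxcl11 they were Stat3, Gvin1, Skap2 and Upp1. The members correlated with each other at 0.9936 to 0.9964. The libraries fall into a stimulated and an unstimulated cluster, over which r is pooled, and 83, 78 and 43 genes exceeded 0.99 for Cxcl9, Cxcl10 and Cxcl11.

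The libraries held 48295939 to 88514341 reads on the listed genes. All 8 monocyte markers were listed, with a summed level of 22241 to 30095 CPM in unstimulated and 8038 to 11440 CPM in stimulated libraries, led by Lyz2 throughout. With stimulus the mean of Lyz2 went from 16598 to 3518 CPM at 6 h and from 21921 to 6195 CPM at 24 h. The fall of the monocyte sum was thus mostly that of Lyz2. The 6 neutrophil markers summed to 72.3 to 149 CPM unstimulated and 41.6 to 168 CPM stimulated at 6 h, and to 391 to 701 and 73.9 to 126 CPM at 24 h. The 6 dendritic cell markers summed to 32.9 to 44.9 and 36.6 to 55.5 CPM at 6 h and to 92.9 to 194 and 37.6 to 42.5 CPM at 24 h. Of 6 T cell markers 1 was listed, Lck, which went from 0.00443 to 0.329 CPM to 2.57 to 3.12 CPM with stimulus at 6 h and from 0.128 to 0.190 CPM to 0.286 to 0.509 CPM at 24 h. Of 5 B cell markers 3 were listed, summing to 134 to 153 CPM unstimulated and 311 to 371 CPM stimulated at 6 h. At 24 h they summed to 127 to 198 and 34.5 to 42.4 CPM. Ighm led throughout, at a mean of 138 and 340 CPM at 6 h and 150 and 36.5 CPM at 24 h. The B cell markers reaching 1 CPM in a library fell with stimulus from 3 to 1 at 6 h and from 3 to 2 at 24 h. The rise of the sum at 6 h was thus that of Ighm. Klrk1, the 1 of 5 NK cell markers listed, went from 8.70 to 11.0 CPM to 391 to 434 CPM at 6 h and from 9.83 to 17.5 CPM to 53.4 to 126 CPM at 24 h with stimulus. The 5 listed endothelial and fibroblast markers of 6 summed to 9.44 to 48.6 CPM unstimulated and 57.5 to 109 CPM stimulated at 6 h. At 24 h they summed to 16 to 27.9 and 310 to 378 CPM. Kdr led with stimulus, at a mean of 49.2 CPM at 6 h and 344 CPM at 24 h. The markers of this list reaching 1 CPM in a library went from 3 to 5 at 6 h and from 4 to 2 at 24 h. The stimulated sum at 24 h was thus mostly Kdr. Klrk1 and Lck were higher with stimulus at both times and lower at 24 h than at 6 h under stimulus, as the ligands were, while Kdr was higher with stimulus and higher at 24 h than at 6 h. The part of other cell types in the ligands' levels was not tested.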

How the data were processed

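Libraries were unstranded polyA libraries read as pairs on a HiSeq2000. Per the study's methods, the authors checked reads with FastQC, aligned them with STAR, counted them with Rsubread and normalized with edgeR. The labels name GRCm39, and versions and annotation are not given in the sources used here. The authors deposited log2 CPM, of the form log2 of reads plus 0.5, scaled to the normalized library size. Where a value stood for few enough reads to be resolved, whole reads were recovered for 100% of values (tolerance 0.01 reads).

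Testing required 1 CPM or more in 2 or more of the 16 libraries, which kept 12782 genes and left out 303. Cxcl11, Ifnb1, Art3, Cxcl14, Pf4 and Cxcr3 passed this filter only through the conditions where they were high. The deposited log2 values were fitted with limma 3.58.1 (R 4.3.3; 8 groups, 8 residual degrees of freedom, prior variance following mean level), and steps were tested on simulated data. Genes were called at a change of at least 2-fold and a Benjamini-Hochberg adjusted p under 0.05 over all genes tested. Stimulus and time comparisons averaged the genotypes. Alternatives were other filters, scalings, pseudocount, prior variances, weights, genotype labels and libraries left out. Named genes were the members, the listed pathway genes, neighbours on the chromosome and the 5 genes most like each member. Members and lists were chosen with earlier results of these data known. Symbols turned into dates (17) and a repeated symbol (1) were left as deposited. A listed pathway gene is not reported here and was left out of the counts.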

Additional observations from a re-analysis of the deposited data

Results flagged for a closer look

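Among 12 sets of 4 libraries (3 genes in each combination of stimulus and time), 3 held a library that stood apart by the ratio of its gap to the range of the set, all of them unstimulated. Chance alone gives about 1 such set in 20. Cxcl10 in library 4, a KO library at 6 h with 14.5 CPM, lay below the other 3 (27.0 to 27.6 CPM), with a gap of 0.969 of the range. Cxcl11 in library 45 at 24 h, with 8 reads and 0.118 CPM, was the lowest of its set (0.882 of the range). Cxcl9 in library 44 at 24 h, with 8.48 CPM, was the highest of its set (0.831 of the range).

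The response to IFN-γ plus CD40L differed between 6 and 24 h for Cxcl9 (-1.37 on the log2 scale) and for Cxcl10 (-1.13) by the test of the difference itself. Both calls were lost under quantile normalization (-0.72 and -0.73) and with each library set to its own total (-0.97 and -0.73). Cxcl11 also gave -1.13 and was not called (limma adjusted p = 0.0573). Stimulated levels fell from 6 to 24 h for each gene. Without stimulus none was called between the times (-0.63 for Cxcl10, -0.54 for Cxcl11 and -0.15 for Cxcl9), and the libraries overlapped.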

How the results depend on the processing

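All 3 ligands were called higher with stimulus at 6 and 24 h in every alternative run and with each library left out. Alternatives other than leaving out 1 library gave 10.30 to 11.29 and 9.42 to 10.00 (Cxcl9), 7.68 to 8.58 and 6.96 to 7.51 (Cxcl10) and 8.71 to 10.91 and 7.18 to 9.89 (Cxcl11) on the log2 scale. With 1 library left out the ranges were 10.90 to 11.35 and 9.56 to 9.95, 8.18 to 8.64 and 7.21 to 7.37, and 10.21 to 11.26 and 9.30 to 9.91. No paired analysis was possible because each library number is used once and no groups share one. The edgeR test on recovered reads was not run, since the deposited unit is log2 CPM. Genotype values rest on 2 libraries a group, and Cxcl11 at rest on 8 to 81 reads a library. The causes of the changes below were not tested.

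Quantile normalization gave -0.97 for the fall of Cxcl9 under stimulus, -0.72 and -0.73 for the difference of the responses of Cxcl9 and Cxcl10, 0 for Cxcl9 by genotype with stimulus at 6 h, and 5 called genes there (0 in the fit reported). Own totals gave -0.97 and -0.73 for the same responses. For Cxcl11 the difference of the responses was called with median centring (-1.29) and log2(CPM + 1) (-1.53). With agreeing labels only, Cxcl10 gave -0.91, Cxcl11 gave -0.019 by genotype with stimulus at 24 h, and 3, 4 and 14 genes were called by genotype (stimulated 6 h, unstimulated 24 h, stimulated 24 h). By tag, genotype values at 24 h were 0.33 and -0.0054 for Cxcl9 and Cxcl10 unstimulated and -0.22 and -0.36 for Cxcl9 and Cxcl11 stimulated, and 5, 2 and 3 genes were called (unstimulated 6 h, unstimulated 24 h, stimulated 24 h).

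A mean of at least 5 CPM tests fewer genes, and called 3275 and 2554 for stimulus at 6 and 24 h (5069 and 4256 reported), 1446 and 2746 for time without and with stimulus (2684 and 4308), 2658 for the difference of the responses (4024) and 5 by genotype unstimulated at 6 h (11). With log2(CPM + 1), 1755 genes were called for time without stimulus, and 4, 1, 1 and 42 by genotype (unstimulated 6 h, stimulated 6 h, change of the response, stimulated 24 h, where 74 were reported). Fits of 1 time called 4 and 14 by genotype with stimulus at 6 and 24 h, and a prior variance without trend called 14 and 5 at 24 h without and with stimulus (37 and 74 reported).

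Leaving out 1 library at a time assumes that a lone library varies like the other groups. Time without stimulus ran from -0.38 to 0.07 for Cxcl9 and from -1.07 to -0.019 for Cxcl11, and the difference of the responses from -1.36 to -0.90 for Cxcl10 and from -1.66 to -0.61 for Cxcl11. By genotype, Cxcl10 and Cxcl11 unstimulated at 6 h ran from -0.91 to 0.0083 and from -1.16 to 0.93, the change of the Cxcl11 response from -0.60 to 1.5, and Cxcl10 unstimulated at 24 h from -0.12 to 0.21. Called genes by genotype ran from 1 to 40 (unstimulated 6 h, 1 without library 4 and 40 without library 1), 0 to 126 (stimulated 6 h, 126 without library 10), 0 to 55 (change of the response, 55 without library 10), 7 to 64 (unstimulated 24 h, 64 without library 43) and 1 to 182 (stimulated 24 h, 182 without library 55 and 1 without library 58). Of 480 member values with a library left out, 469 kept their direction and their side of the thresholds. Many of these left out a library that the comparison does not use, where the log2 value could not move. The count is therefore not a measure of stability.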
